A study of Homo sapiens with 12 samples.

Results

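KMS-34 and KMS-11 are human multiple myeloma cell lines, and the data described here compare the untreated parental cultures of both, 3 samples labelled KMS-34 against 3 labelled KMS-11. They are 6 of the 12 arrays of a study of resistance to the proteasome inhibitor carfilzomib, whose other arrays hold derivatives selected in the drug. Both parental lines are t(4;14)-positive, had never been selected in carfilzomib, and were grown for profiling in the same medium with 4% fetal bovine serum. Each line stands for 1 tumor, so a difference between them is a difference between 2 cultures and not between classes of myeloma. Total RNA was measured on Affymetrix Human Genome U133 Plus 2.0 arrays, and nothing states whether the 3 samples of a line came from separate cultures, so the p-values measure the spread between these samples, which may be technical.

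Multiple myeloma is a cancer of plasma cells, the antibody-secreting end stage of B cell development. Plasma cells shut down much of the B cell program, including antigen presentation and B cell receptor signaling, and expand the endoplasmic reticulum for antibody secretion, which leaves them dependent on protein quality control and on the proteasome. In t(4;14) myeloma the immunoglobulin heavy chain enhancers of chromosome 14 drive NSD2, a histone H3K36 methyltransferase, and often FGFR3, a receptor tyrosine kinase, both on chromosome 4. Myeloma lines also differ in mutations that activate NF-kB, the transcription factor family that carries survival signals in B lineage cells.

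The values are RMA signals on the log2 scale from which 1 constant per probe set was subtracted, the same constant for all arrays. Which arrays set that constant is not settled. A value therefore places an array above or below the other arrays for that gene and gives no expression level, and the levels of 2 genes cannot be compared. For the same reason the plasma cell identity of the lines cannot be checked by the level of its markers, and only the difference of each marker between the lines is known. Arrays of one line correlated with each other at r of 0.904 to 0.937 for KMS-11 and 0.859 to 0.871 for KMS-34 over all probe sets, and arrays of different lines at -0.248 to -0.171. Centring removes the level that all arrays share and so lowers r between the lines. The negative sign therefore does not mean that the lines express genes in opposite order. Each difference below is KMS-34 minus KMS-11 on the log2 scale with its standard error (SE) from limma, with 3 arrays per line, and a gene is called higher in a line where its p-value, adjusted over 19775 genes by the Benjamini-Hochberg method, was under 0.05.

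The lines differed in a large part of the transcriptome. Of 19775 genes, 8196 (41.4%) were called, 4225 of them (21.4%) higher in KMS-34 and 3971 (20.1%) higher in KMS-11. Most differences were small, with a median absolute difference of 0.16, a median of 0.02 over all genes and quartiles of -0.15 and 0.18. A difference of at least 2-fold was called for 1527 genes (7.72%), 709 (3.59%) higher in KMS-34 and 818 (4.14%) higher in KMS-11. Cyclic loess scaling turned this split to 787 and 507. The 3 arrays of one line lay entirely above the 3 of the other in 9907 genes (50.1%), and 18661 of 54613 probe sets (34.2%) were called when tested singly. Differences of at least 8-fold numbered 48 in favor of KMS-34 and 101 in favor of KMS-11.

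The genes with the largest differences belonged to tissues and functions far apart. In KMS-34 the list was led by GPAT2, a mitochondrial glycerol-3-phosphate acyltransferase, whose centred log2 signals were -0.63, -0.43 and -0.26 in KMS-11 and 5.37, 5.54 and 5.63 in KMS-34. Its difference was 5.95 ± 0.10, or 61.9-fold (adjusted p = 9e-11). Only called genes without overlap between the lines and with all probe sets of the same sign could enter this list. INHBE, an inhibin beta subunit and secreted factor of the TGF-beta family, read -4.89, -4.98 and -5.15 in KMS-11 and 0.66, 0.86 and 0.70 in KMS-34, a difference of 5.75 ± 0.09 (adjusted p = 3.7e-11). For INHBE the KMS-11 arrays lay far below the KMS-34 arrays, which stood close to the centre of the gene. ASS1, the argininosuccinate synthase that makes a cell independent of external arginine, stood at -1.17, -1.30 and -1.06 in KMS-11 and 3.82, 3.78 and 3.82 in KMS-34 (4.98 ± 0.07, adjusted p = 3.7e-11). The remainder of the 15 leading genes were BCHE (butyrylcholinesterase, 5.20), MPPED2 (5.09), the noncoding TMEM132D-AS1 (4.83), LY6E (4.38), the metalloprotease inhibitor TIMP1 (4.27), EVI2B (4.23), the transcriptional repressor BHLHE41 (4.23), the transporter SLC16A14 (4.18), the WNT antagonist DKK1 (4.18), ANKLE1 (4.17), TEX14 (4.13) and the vesicle calcium sensor SYT1 (4.11). The 4 probe sets of BHLHE41 ran from 0.22 to 7.42.

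The differences in favor of KMS-11 were larger still. GJA1, connexin 43, a gap junction protein, read 8.49, 8.44 and 8.35 in KMS-11 and -0.07, -0.23 and 0.04 in KMS-34, and its difference of -8.52 ± 0.08 corresponded to 366-fold (adjusted p = 2.6e-12). QPCT, glutaminyl-peptide cyclotransferase, read 8.09, 8.04 and 7.99 in KMS-11 and -0.35, -0.28 and -0.14 in KMS-34 (-8.30 ± 0.07, adjusted p = 2.6e-12). The KMS-34 arrays stood near the centre of both genes and the KMS-11 arrays far above it, so the lines were separated by much more than the spread within them. PLS3, an actin-bundling plastin, showed the same separation from the other side, at 0.25, 0.28 and 0.11 in KMS-11 and -6.77, -7.38 and -6.85 in KMS-34 (-7.21 ± 0.14). Next came the cancer-testis antigen CTAG2 (-7.16), the lens crystallin CRYBB1 (-7.09), the filamin-binding RFLNB (-6.77), THEMIS, a T cell development protein (-6.73), the serine protease inhibitor SPINT2 (-6.22), the epithelial adhesion molecule EPCAM (-6.06), the cytokine receptor chains IL2RG (-5.98) and CSF2RB (-5.78), GAS2 (-5.97), the calcium-binding S100A4 (-5.86), the tetraspanin CD81 (-5.31) and TSPYL5 (-5.26). Under cyclic loess scaling GJA1, QPCT, PLS3, CTAG2, CRYBB1, RFLNB, THEMIS, SPINT2, EPCAM, GAS2, CD81 and TSPYL5 kept their direction with differences of -2.29 to -3.94 and were no longer called.

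**Figure D1:**
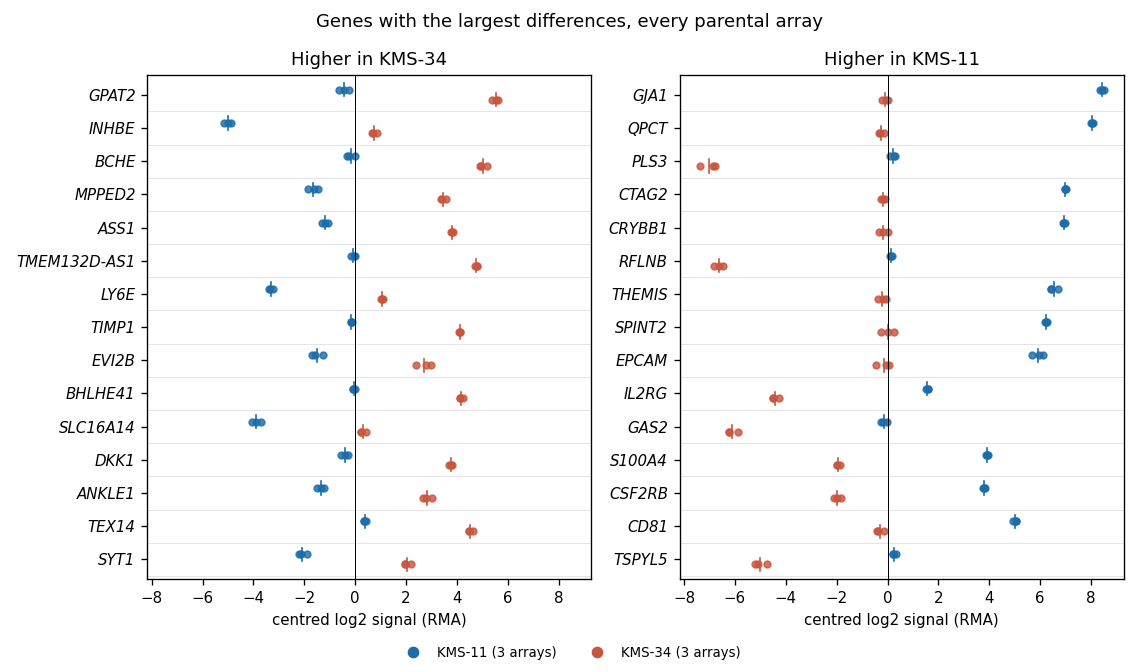
Centred log2 signal (x axis) of the 15 genes with the largest called differences in each direction (y axis), with 1 point per parental array, 3 for KMS-11 in blue and 3 for KMS-34 in red, and a vertical tick at each mean. Genes were eligible only without overlap of the lines and with all their probe sets of the same sign, so a separation was required. The difference between the lines runs from 4.11 for SYT1 to -8.52 for GJA1.

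Genes of the integrated stress response stood higher in KMS-34 almost throughout. In this response ATF4, a transcription factor whose translation increases when amino acids run short or the endoplasmic reticulum is overloaded, turns on genes of serine and one-carbon synthesis, amino acid import and redox control. Of 24 measured members, 20 were higher in KMS-34 and 1 higher in KMS-11, against 21.4% and 20.1% of all genes, and 13 were higher in KMS-34 by at least 2-fold. The median member differed by 1.04, against 0.02 for all genes.

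The serine pathway held the largest of these differences. PHGDH, which commits glucose carbon to serine, read -2.93, -2.79 and -3.08 in KMS-11 and 0.68, 0.63 and 0.75 in KMS-34, a difference of 3.62 ± 0.08 or 12.3-fold (adjusted p = 5e-10). The next steps were smaller, with 1.34 ± 0.07 for the transaminase PSAT1 (adjusted p = 1.5e-07) and 0.37 ± 0.12 for the phosphatase PSPH (adjusted p = 0.026). Mitochondrial one-carbon enzymes followed, ALDH1L2 at -1.13, -1.30 and -1.24 in KMS-11 and 1.52, 1.90 and 1.43 in KMS-34 (2.84 ± 0.11, adjusted p = 2.2e-08) and SHMT2, which passes a carbon unit from serine to folate, at 1.37. No array of KMS-11 reached a KMS-34 array for PHGDH or ALDH1L2, a separation seen in either direction in 50.1% of all genes.

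Other effectors were also higher in KMS-34. CHAC1, which degrades glutathione, read -1.58, -1.40 and -1.48 in KMS-11 and 0.48, 0.63 and 0.53 in KMS-34 (2.03 ± 0.07, adjusted p = 1.1e-08). PCK2, the mitochondrial phosphoenolpyruvate carboxykinase, differed by 2.03 ± 0.07, the secreted glycoprotein STC2 by 2.03 ± 0.08, the lipoprotein receptor VLDLR by 2.23 ± 0.15, and SESN2, a leucine-sensing brake on mTORC1, by 1.78 ± 0.09. The cystine importer SLC7A11 read -1.15, -1.04 and -1.06 in KMS-11 and 0.44, 0.41 and 0.37 in KMS-34 (1.48 ± 0.07, adjusted p = 4e-08). Among the transcription factors of the response, ATF3 was higher in KMS-34 by 1.02 ± 0.06 (adjusted p = 4.9e-07) and DDIT3, also known as CHOP, by 0.77 ± 0.08 (adjusted p = 1.9e-05). The 3 probe sets of ATF3 ran from -0.02 to 1.73, and 2 of them were called.

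ATF4 itself, whose control is largely translational, did not pass, at -0.04, -0.05 and -0.03 in KMS-11 and 0.01, 0.07 and -0.01 in KMS-34 (0.07 ± 0.06, adjusted p = 0.47). Its KMS-34 arrays lay above the KMS-11 arrays by a small margin. TRIB3 (0.13 ± 0.08, adjusted p = 0.22) and NUPR1 (-0.08 ± 0.11, adjusted p = 0.64) did not pass either, though TRIB3 was called without replicate 1 of KMS-34 (0.20). The member higher in KMS-11 was PPP1R15A, the phosphatase subunit GADD34 that ends the response (-0.85 ± 0.07, adjusted p = 5.5e-06). Several members lie on chromosomes where many genes were higher in KMS-34, described further below, so the count was repeated without chromosomes 3, 4, 10, 11 and 12. Of the 18 members left, 14 were higher in KMS-34 (77.8%) and 1 higher in KMS-11. Of all 14907 genes not placed on those chromosomes, members included, the shares were 18.3% and 21.9%.

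The promoters of these genes were searched for the core of the amino acid response element, TGATGNAA, on both strands in RefSeq windows of 300 bases that end shortly after the transcription start. The element was found for 5 of the 19 members with a window (26.3%) and for 4.46% of 27305 genes. All 5 (ATF3, ASNS, CHAC1, SLC3A2 and SLC7A1) were among the members higher in KMS-34. So were 16 of the 19 members with a window, against 1 higher in KMS-11 and 2 not called, which left little room for another split. Asparagine synthetase ASNS (0.73) and the amino acid carrier subunits SLC7A1 (0.96) and SLC3A2 (1.06) are named here because they hold the element. A match is a run of letters and no measured binding. The windows of the 3 with the largest differences, written 5′ to 3′ along the gene with the match in capitals, show where it lies.
CHAC1, GRCh38.p14 chr15:40953221-40953520, plus strand: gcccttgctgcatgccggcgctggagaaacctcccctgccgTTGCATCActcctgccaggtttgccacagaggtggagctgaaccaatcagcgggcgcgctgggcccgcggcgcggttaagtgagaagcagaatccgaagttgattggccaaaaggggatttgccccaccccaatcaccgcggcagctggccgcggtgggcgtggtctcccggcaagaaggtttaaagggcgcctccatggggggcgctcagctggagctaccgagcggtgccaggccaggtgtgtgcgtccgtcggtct
SLC3A2, GRCh38.p14 chr11:62881449-62881748, plus strand: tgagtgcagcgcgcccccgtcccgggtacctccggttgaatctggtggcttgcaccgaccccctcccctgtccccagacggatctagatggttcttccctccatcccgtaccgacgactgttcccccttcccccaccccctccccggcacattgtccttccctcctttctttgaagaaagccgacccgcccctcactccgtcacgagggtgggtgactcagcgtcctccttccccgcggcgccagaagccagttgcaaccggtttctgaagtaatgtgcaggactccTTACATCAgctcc
ATF3, GRCh38.p14 chr1:212565157-212565456, plus strand: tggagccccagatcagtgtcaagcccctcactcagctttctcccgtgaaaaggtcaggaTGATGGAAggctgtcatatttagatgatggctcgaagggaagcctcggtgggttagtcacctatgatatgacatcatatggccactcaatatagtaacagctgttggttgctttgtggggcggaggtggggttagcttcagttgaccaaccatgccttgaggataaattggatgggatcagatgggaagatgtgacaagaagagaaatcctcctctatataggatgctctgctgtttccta
In CHAC1 and SLC3A2 the match is on the opposite strand and reads TTNCATCA, and in SLC3A2 it falls past the transcription start.

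NF-kB genes showed the opposite order. The list holds the family's subunits, its inhibitors and kinases, and target genes that it turns on, several of which feed back on it. Of 27 measured members, 21 were called (77.8%, against 41.4% of all genes), 18 higher in KMS-11 and 3 higher in KMS-34, 11 and 1 of them by at least 2-fold, and the median member differed by -0.57. Without chromosomes 3, 4, 10, 11 and 12 the count was 16 of 20 higher in KMS-11 (80%) and 1 higher in KMS-34.

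The largest difference was that of TNFAIP3, also known as A20, a ubiquitin-editing enzyme that is both a target and a brake of the pathway. Its signals were 0.60, 0.65 and 0.63 in KMS-11 and -2.81, -2.72 and -2.80 in KMS-34, a difference of -3.40 ± 0.06 or 10.6-fold (adjusted p = 1.4e-10). LTB, lymphotoxin beta, a cytokine that activates the alternative branch, read 3.05, 2.95 and 3.06 in KMS-11 and -0.07, -0.15 and 0.07 in KMS-34 (-3.07 ± 0.08, adjusted p = 8e-10), and LTA, which joins it in a trimer, differed by -2.07 ± 0.08 (adjusted p = 1.8e-08). No KMS-34 array reached a KMS-11 array for these 3 genes, a separation seen in either direction in 50.1% of all genes. LTA and LTB were no longer called under cyclic loess scaling, at -1.09 and -1.26. The 2 probe sets of LTB did not move alike, with differences of -6.05 and -0.09.

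Of the subunits, RELB, of the alternative branch, read 0.50, 0.57 and 0.69 in KMS-11 and -1.31, -1.04 and -1.06 in KMS-34 (-1.73 ± 0.09, adjusted p = 1.3e-07). REL differed by -1.32 ± 0.07, NFKB2 by -1.25 ± 0.11 (adjusted p = 7.4e-06) and NFKB1 by -1.04 ± 0.08. RELA, the subunit of the classical branch, was higher in KMS-34 by 0.52 ± 0.07 (adjusted p = 0.00012), together with the kinase CHUK (1.40 ± 0.12, adjusted p = 4.3e-06) and the receptor CD40 (0.21 ± 0.06, adjusted p = 0.023). The 3 probe sets of NFKB2 did not move alike, with differences of -1.88, -1.84 and -0.04.

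Among the regulators, the inhibitor NFKBIE was higher in KMS-11 by 1.65 on the log2 scale, with signals of 0.05, 0.13 and -0.02 in KMS-11 and -1.74, -1.47 and -1.58 in KMS-34 (adjusted p = 1.1e-07). TRAF3, which with BIRC2 holds the alternative branch in check and is often lost in myeloma, was higher in KMS-11 too, at 1.18, 1.11 and 1.06 in KMS-11 and -0.26, -0.03 and 0.00 in KMS-34 (-1.21 ± 0.08, adjusted p = 1.1e-06), and both of its probe sets agreed in direction (-1.83 and -0.60). BIRC2 did not pass (0.15 ± 0.07, adjusted p = 0.13). CYLD, a deubiquitinase that restrains NF-kB, differed by -0.34 ± 0.07 (adjusted p = 0.0037), but its 7 probe sets ran from -0.81 to 0.31. IKBKB (0.23 ± 0.09, adjusted p = 0.059), NFKBIB (0.10) and NFKBIZ (0.10) did not pass, though IKBKB was called without replicate 1 of KMS-34 (0.30) and with the replicate block (0.23).

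**Figure D2:**
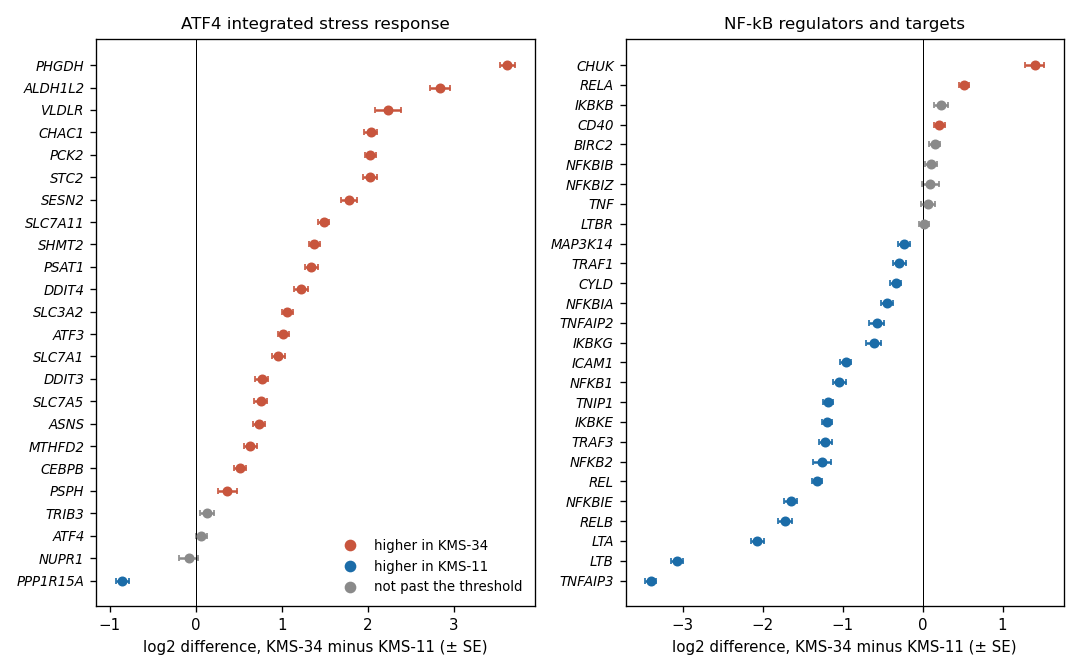
Log2 difference between KMS-34 and KMS-11 (x axis, points with SE, 3 arrays per line) for each measured member of the ATF4 list (left) and the NF-kB list (right), colored red where the gene was called higher in KMS-34, blue where higher in KMS-11 and gray where not called. The ATF4 members run from -0.85 for PPP1R15A to 3.62 for PHGDH and the NF-kB members from -3.40 for TNFAIP3 to 1.40 for CHUK.

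The promoter windows were searched for GGGNNTTNCC, a form of the kB element, on both strands. It was found for 12 of 23 members with a window (52.2%) and for 6.85% of all genes. Of the 16 members with a window that were higher in KMS-11, 10 held it, of the 2 higher in KMS-34 none did, and of the 5 that did not pass 2 did. The windows of the 3 with the largest differences are printed with each match in capitals.
TNFAIP3, GRCh38.p14 chr6:137867009-137867308, plus strand: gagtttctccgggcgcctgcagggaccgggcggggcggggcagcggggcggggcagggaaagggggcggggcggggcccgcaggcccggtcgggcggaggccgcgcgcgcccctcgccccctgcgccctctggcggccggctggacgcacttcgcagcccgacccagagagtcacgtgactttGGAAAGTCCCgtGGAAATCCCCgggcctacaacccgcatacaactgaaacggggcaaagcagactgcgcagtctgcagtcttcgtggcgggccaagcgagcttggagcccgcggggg
LTB, GRCh38.p14 chr6:31582376-31582675, minus strand: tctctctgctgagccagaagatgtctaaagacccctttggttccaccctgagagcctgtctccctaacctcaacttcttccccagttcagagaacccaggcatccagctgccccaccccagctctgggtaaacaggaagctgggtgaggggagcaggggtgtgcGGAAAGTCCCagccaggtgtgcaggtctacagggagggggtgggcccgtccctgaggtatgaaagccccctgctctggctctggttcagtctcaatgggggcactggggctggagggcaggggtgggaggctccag
LTA, GRCh38.p14 chr6:31572039-31572338, plus strand: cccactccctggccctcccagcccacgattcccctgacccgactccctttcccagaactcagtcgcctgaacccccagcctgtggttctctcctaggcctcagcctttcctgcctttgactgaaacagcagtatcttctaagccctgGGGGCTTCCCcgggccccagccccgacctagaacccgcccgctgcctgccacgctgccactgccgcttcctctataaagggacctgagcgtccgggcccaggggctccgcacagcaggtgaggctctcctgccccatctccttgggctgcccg
TNFAIP3 holds a pair of matches separated by a few bases, and LTB and LTA, which neighbor each other in the HLA region of chromosome 6, hold 1 each.

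Antigen presentation by HLA class II was the third group with a marked direction, higher in KMS-11. These molecules show peptides to helper T cells, are a mark of B cells, and are usually shut off in plasma cells. Of 16 measured genes, 14 were called (87.5%, against 41.4% of all genes). Of these, 11 were higher in KMS-11, 6 by at least 2-fold, and 3 higher in KMS-34, and the median of the 16 was -0.60. All 16 lie outside chromosomes 3, 4, 10, 11 and 12.

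CD74, the invariant chain that guides class II molecules, read 0.70, 0.66 and 0.67 in KMS-11 and -2.20, -2.22 and -2.08 in KMS-34 (-2.84 ± 0.07, adjusted p = 5.6e-10). HLA-DRA read 0.63, 0.69 and 0.68 in KMS-11 and -1.90, -1.90 and -1.92 in KMS-34 (-2.57 ± 0.06, adjusted p = 6.4e-10) and HLA-DRB1 differed by -2.40 ± 0.08 (adjusted p = 6.9e-09). In each of the 3 genes every KMS-11 array lay above every KMS-34 array. Over all genes, 50.1% were separated in this way in either direction. The 3 probe sets of CD74 ran from -6.36 to 0.04, and 2 of them were called. CTSS, the cathepsin that trims the invariant chain, differed by -1.64 ± 0.08, HLA-DQB1 by -1.49 ± 0.07 and the peptide exchange subunit HLA-DMB by -1.20 ± 0.06. CTSS was not called under cyclic loess scaling (-0.71).

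The genes that went the other way were the regulator RFXAP (0.70 ± 0.11, adjusted p = 0.00048), HLA-DPA1 (0.62 ± 0.07, adjusted p = 4.8e-05) and HLA-DOB (0.40 ± 0.08, adjusted p = 0.0023), the last pair named after their values were seen because only 3 did so. CIITA, the master activator of class II genes, differed by -0.36 ± 0.07 (adjusted p = 0.0027). RFXANK (-0.15 ± 0.07) and HLA-DOA (0.07 ± 0.07) did not pass. HLA genes are polymorphic and similar to each other, and a difference in allele and a difference in expression cannot be told apart here. The 3 probe sets of HLA-DQA1 ran from -2.43 to 0.27 and the 7 of HLA-DQB1 from -3.56 to 0.17.

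Class I presentation was split. The immunoproteasome subunits were higher in KMS-34, PSMB9 by 1.12 ± 0.07 (adjusted p = 3.3e-07), PSMB8 by 0.93 ± 0.07 (adjusted p = 1.7e-06) and PSMB10 by 0.32 ± 0.07 (adjusted p = 0.0024). PDIA3, a chaperone of the peptide-loading complex, was higher in KMS-11 (-1.07 ± 0.08). Of 18 genes, 9 were higher in KMS-34 and 5 higher in KMS-11 (77.8% called, against 41.4% of all genes). The count higher in KMS-11 fell to 3 without replicate 1 or 2 of KMS-11 or replicate 1 or 3 of KMS-34. B2M, the shared light chain, did not pass (-0.05 ± 0.06, adjusted p = 0.6), nor did HLA-F (-0.07) or HLA-G (-0.14).

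Interferon-stimulated genes were split in the same way, with 16 of 38 higher in KMS-34 and 12 higher in KMS-11 (73.7% called, against 41.4% of all genes). Members of both kinds were among the largest differences. OAS2, which senses double-stranded RNA, read 0.18, 0.13 and 0.15 in KMS-11 and 3.34, 3.44 and 3.28 in KMS-34 (3.20 ± 0.07, adjusted p = 3.2e-10). BST2, also known as tetherin, differed by 1.97 ± 0.07, the membrane protein IFITM1 by 1.87 ± 0.13, and the GTPase GBP1 by 1.81 ± 0.08. On the other side HERC5, the ligase that attaches ISG15, read 2.34, 2.33 and 2.24 in KMS-11 and -0.28, -0.18 and -0.23 in KMS-34 (-2.53 ± 0.07, adjusted p = 1.2e-09), the exonuclease ISG20 differed by -2.33 ± 0.08 and IFIT3 by -2.27 ± 0.09. HERC5 was not called under cyclic loess scaling (-1.40). ISG15 (0.15 ± 0.08, adjusted p = 0.18) and MX1 (0.20 ± 0.08, adjusted p = 0.066), 2 of the most widely shared members of the response, did not pass. Both were called without replicate 1 of KMS-34 (0.24 and 0.25), ISG15 also under cyclic loess scaling (0.23) and MX1 without replicate 2 of KMS-11 (0.26) and with array weights (0.23).

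The letters TTTCNNTTTC, the core of the interferon-stimulated response element, searched on both strands, stood in the windows of 21 of 29 members (72.4%) and of 4.38% of all genes. They were found for 7 of 11 members higher in KMS-34, 7 of 9 higher in KMS-11 and 7 of 9 that did not pass. Among the members that held a match, the windows of those with the largest difference in each direction are shown.
BST2, GRCh38.p14 chr19:17405581-17405880, minus strand: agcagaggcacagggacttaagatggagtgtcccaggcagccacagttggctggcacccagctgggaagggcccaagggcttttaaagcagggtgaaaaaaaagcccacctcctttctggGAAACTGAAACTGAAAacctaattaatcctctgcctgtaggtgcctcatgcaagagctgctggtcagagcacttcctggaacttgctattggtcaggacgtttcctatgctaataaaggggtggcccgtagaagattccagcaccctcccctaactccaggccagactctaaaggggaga
HERC5, GRCh38.p14 chr4:88456869-88457168, plus strand: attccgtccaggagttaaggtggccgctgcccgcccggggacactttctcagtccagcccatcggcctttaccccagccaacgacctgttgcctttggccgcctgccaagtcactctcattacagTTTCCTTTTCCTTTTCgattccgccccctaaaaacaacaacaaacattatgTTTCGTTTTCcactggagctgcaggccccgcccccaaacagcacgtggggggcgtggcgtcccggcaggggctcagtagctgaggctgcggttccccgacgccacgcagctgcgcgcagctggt
BST2 holds 2 overlapping matches and HERC5 holds 3, with the overlapping ones run together.

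**Figure D3:**
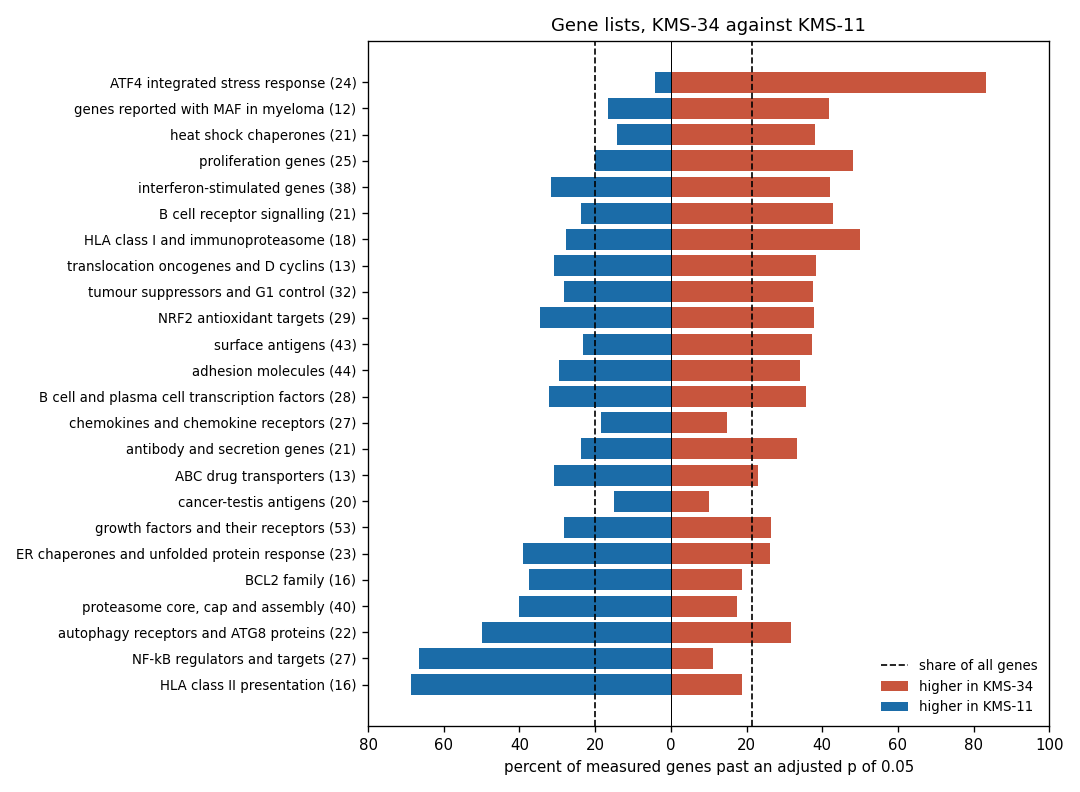
Percent of the measured genes of each list (y axis, number measured in parentheses, ordered by the median difference) called higher in KMS-34 (red, to the right) or higher in KMS-11 (blue, to the left), with dashed lines at the shares of all genes, 21.4% and 20.1%. The ATF4 list reaches far to the right, the HLA class II and NF-kB lists far to the left, and most other lists hold genes of both kinds.

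The genes at the t(4;14) breakpoint region differed from one another. Of 13 translocation oncogenes, their neighbors and cyclins, 5 were higher in KMS-34 and 4 higher in KMS-11 (69.2% called, against 41.4% of all genes). TACC3, FGFR3, LETM1 and NSD2 are consecutive measured genes on chromosome 4. LETM1, a mitochondrial ion exchanger between the 2 translocation oncogenes, read -0.74, -0.81 and -0.86 in KMS-11 and 1.54, 1.64 and 1.64 in KMS-34, a difference of 2.41 ± 0.07 or 5.3-fold (adjusted p = 2e-09), and its 3 probe sets agreed, from 1.70 to 3.11. FGFR3 was higher in KMS-11, at 0.87, 0.94 and 0.93 in KMS-11 and -0.01, 0.11 and 0.04 in KMS-34 (-0.87 ± 0.07, adjusted p = 2.2e-06), and the mitotic spindle gene TACC3, on its other side, differed by -0.64 ± 0.08 (adjusted p = 0.00012).

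NSD2 averaged 0.49 ± 0.07 in favor of KMS-34 (adjusted p = 0.00025), with signals of -0.09, 0.06 and -0.06 in KMS-11 and 0.39, 0.51 and 0.47 in KMS-34. The average hides a split, because 3 of its 6 probe sets were called higher in KMS-34, by 1.27, 1.52 and 2.08, and 3 higher in KMS-11, by -0.57, -0.59 and -0.76. Which part of the transcript each probe set reads is not given in the sources used here.

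Of the other oncogenes, MAF, a leucine zipper factor, was higher in KMS-11 by -0.79 ± 0.08 (adjusted p = 2e-05), with signals of 0.78, 0.71 and 0.61 in KMS-11 and -0.15, 0.04 and -0.17 in KMS-34 and with probe sets from -2.11 to -0.08. CCND1 was higher in KMS-34, at 0.63, 0.76 and 0.57 in KMS-11 and 1.48, 1.88 and 1.78 in KMS-34 (1.06 ± 0.10, adjusted p = 1.5e-05). CCND2, the D cyclin that most t(4;14) tumors use, did not pass (0.00 ± 0.07, adjusted p = 0.99), nor did CCND3 (0.07 ± 0.06, adjusted p = 0.45). The probe sets of CCND2 did not move alike, with differences of -0.22, -0.17, -0.11 and 0.51. With the last, the one of largest variance, standing for the gene it was called higher in KMS-34 (adjusted p = 0.00063). That choice favors probe sets that differ between the lines. MYC did not pass (-0.08 ± 0.07, adjusted p = 0.39) and neither did MYCN (0.07), while MYCL differed by -0.42 ± 0.10 (adjusted p = 0.0077). For MYC and CCND2 the arrays of the lines overlapped.

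Of 12 genes reported to follow MAF in myeloma, 5 were higher in KMS-34 and 2 higher in KMS-11 (58.3% called, against 41.4% of all genes). NUAK1, a kinase, read -0.11, 0.01 and -0.10 in KMS-11 and 3.09, 3.28 and 3.22 in KMS-34 (3.26 ± 0.07, adjusted p = 5e-10), the integrin ITGB7 differed by 1.27 ± 0.07 (adjusted p = 1.3e-07), the small GTPase RND3 by 1.18 ± 0.07, CCR1 by 0.43 ± 0.10 (adjusted p = 0.0046) and AHNAK by 0.40 ± 0.08. ARID5A, an RNA-binding factor, went the other way (-1.58 ± 0.07, adjusted p = 6.7e-08). Without replicate 2 of KMS-11, 1 member in place of 2 was higher in KMS-11. Without chromosomes 3, 4, 10, 11 and 12, 5 members were left, 1 higher in KMS-34 and 2 higher in KMS-11, with a median of -0.10.

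**Figure D4:**
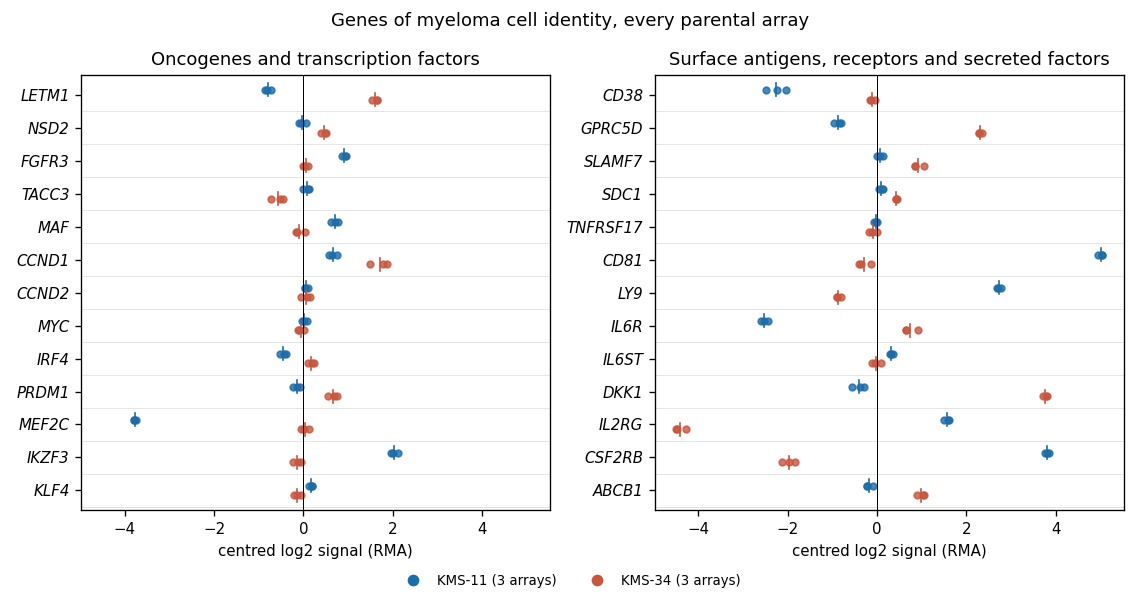
Centred log2 signal (x axis) of oncogenes and transcription factors (left) and of surface antigens, receptors, the secreted factor DKK1 and the transporter ABCB1 (right), with 1 point per parental array, KMS-11 in blue and KMS-34 in red, and a tick at each mean. The arrays of the lines are far apart for MEF2C, CD81, IL2RG, CSF2RB and DKK1 and overlap for CCND2, MYC and TNFRSF17.

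Transcription factors of the B lineage were called in both directions, 10 of 28 higher in KMS-34 and 9 higher in KMS-11 (67.9% called, against 41.4% of all genes). MEF2C, a factor of B cell proliferation and survival, had the largest difference, with signals of -3.79, -3.75 and -3.79 in KMS-11 and -0.05, 0.12 and 0.01 in KMS-34 (3.81 ± 0.07, adjusted p = 1.1e-10) and 3 probe sets between 3.65 and 3.93. BACH2, a repressor that delays plasma cell differentiation, differed by 1.25 ± 0.08, IKZF1, the lymphoid factor Ikaros, by 1.20 ± 0.07, and POU2F2, also known as OCT2, by 1.12 ± 0.07. IKZF3, or Aiolos, the partner of Ikaros and with it a target of lenalidomide, was higher in KMS-11, at 1.95, 2.12 and 1.99 in KMS-11 and -0.23, -0.06 and -0.11 in KMS-34 (-2.16 ± 0.08, adjusted p = 8.1e-09), as was ETS1 (-1.38 ± 0.07). Ikaros and Aiolos thus stood in opposite order. IKZF3 was not called under cyclic loess scaling (-1.18).

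Among the factors that set the plasma cell state, PRDM1, or Blimp-1, which silences the B cell program, read -0.14, -0.08 and -0.23 in KMS-11 and 0.74, 0.69 and 0.56 in KMS-34 (0.81 ± 0.08, adjusted p = 9.4e-06), and IRF4, on which myeloma cells depend, -0.53, -0.38 and -0.44 in KMS-11 and 0.11, 0.23 and 0.19 in KMS-34 (0.63 ± 0.07, adjusted p = 3.7e-05), both modestly higher in KMS-34. XBP1, the secretory factor, did not pass (0.05 ± 0.08, adjusted p = 0.69), nor did the B cell factor PAX5 (0.03 ± 0.09, adjusted p = 0.84). KLF4 was higher in KMS-11 by a small amount, at 0.13, 0.19 and 0.20 in KMS-11 and -0.15, -0.05 and -0.20 in KMS-34 (-0.31 ± 0.07, adjusted p = 0.004), and of its 2 probe sets 1 was called (-0.44).

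Of 21 antibody and secretion genes, 7 were higher in KMS-34 and 5 higher in KMS-11 (57.1% called, against 41.4% of all genes). JCHAIN, which joins antibodies into polymers, read 0.21, 0.12 and 0.25 in KMS-11 and -4.29, -3.83 and -4.19 in KMS-34 (-4.29 ± 0.11, adjusted p = 1.1e-09). EAF2, a transcription elongation factor of plasma cells, read -1.68, -1.52 and -1.59 in KMS-11 and 2.50, 2.58 and 2.05 in KMS-34 (3.98 ± 0.13, adjusted p = 4.3e-09). JCHAIN and EAF2 thus stood far apart between the lines in opposite directions, and JCHAIN was not called under cyclic loess scaling (-2.21). The disulfide isomerase TXNDC11 (1.99 ± 0.07), TENT5C, a poly(A) polymerase mutated in myeloma (1.34 ± 0.07), and the endoplasmic reticulum cochaperone MZB1 (1.15 ± 0.06) were higher in KMS-34. IGHM averaged 1.07 ± 0.07, but its 5 probe sets ran from -0.20 to 4.41, and immunoglobulin genes share sequence.

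Surface antigens, which include the targets of antibodies and engineered T cells, were called for 26 of 43 genes (60.5%, against 41.4% of all genes). Of these, 16 were higher in KMS-34 and 10 higher in KMS-11, 6 of each by at least 2-fold (27.9% of the list, against 7.72% of all genes). GPRC5D, an orphan receptor of plasma cells, read -0.97, -0.80 and -0.85 in KMS-11 and 2.29, 2.36 and 2.29 in KMS-34, a difference of 3.19 ± 0.07 or 9.1-fold (adjusted p = 3.9e-10). CD38, an NAD-consuming ectoenzyme and the target of daratumumab, read -2.49, -2.23 and -2.04 in KMS-11 and -0.13, -0.04 and -0.17 in KMS-34, a difference of 2.14 ± 0.11 or 4.4-fold (adjusted p = 9.8e-08). For both antigens every KMS-34 array stood above every KMS-11 array, while 50.1% of all genes were separated in either direction. CD200, an inhibitory ligand, differed by 2.15 ± 0.12 (adjusted p = 1.8e-07), SLAMF7, the target of elotuzumab, by 0.85 ± 0.08 (adjusted p = 8.1e-06), SDC1, the plasma cell marker CD138, by 0.34 ± 0.06 (adjusted p = 0.0013), and NCAM1, or CD56, by 0.64 ± 0.07 (adjusted p = 2.8e-05), with probe sets from -0.03 to 2.50.

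Higher in KMS-11 were CD81, a tetraspanin of the B cell coreceptor, at 4.95, 5.05 and 5.04 in KMS-11 and -0.36, -0.40 and -0.14 in KMS-34 (-5.31 ± 0.08), LY9, at 2.71, 2.77 and 2.69 in KMS-11 and -0.82, -0.89 and -0.89 in KMS-34 (-3.59 ± 0.06, adjusted p = 9.7e-11), the death receptor FAS (-1.81 ± 0.06, adjusted p = 9.7e-09), TNFRSF13B, the receptor TACI (-1.80 ± 0.06, adjusted p = 1e-08), and CD28 (-0.89 ± 0.08, adjusted p = 5.6e-06). TNFRSF17, or BCMA, did not pass, with overlapping signals of -0.01, -0.03 and -0.06 in KMS-11 and -0.12, 0.01 and -0.17 in KMS-34 (-0.06 ± 0.07, adjusted p = 0.57). FCRL5 (0.03 ± 0.10), CD52 (0.02 ± 0.08), the B cell antigen MS4A1, or CD20 (0.06 ± 0.13), CD27 (-0.26 ± 0.11, adjusted p = 0.098) and CD24 (-0.24 ± 0.10, adjusted p = 0.077) did not pass in the 6 arrays. Without replicate 3 of KMS-34, CD27 was called at -0.35, and without replicate 2 of KMS-11, CD24 was called at -0.34.

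Of 21 B cell receptor signaling genes, 9 were higher in KMS-34 and 5 higher in KMS-11 (66.7% called, against 41.4% of all genes), with a median of 0.09. The adaptor BANK1 read 0.00, -0.09 and 0.14 in KMS-11 and 3.06, 3.38 and 2.94 in KMS-34 (3.11 ± 0.11, adjusted p = 9.9e-09). BLNK, the scaffold below SYK, differed by 1.92 ± 0.09 (adjusted p = 6.5e-08), and the SRC-family kinases LYN and FYN by 1.35 ± 0.07 and 1.24 ± 0.07. MALT1, the protease that links the receptor to NF-kB, was higher in KMS-11 (-1.01 ± 0.07, adjusted p = 8.9e-07). SYK (0.09), the receptor chain CD79A (0.10) and BLK (0.20) did not pass.

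Receptors for growth factors and cytokines showed some of the widest separations. IL2RG, the common gamma chain of the receptors for IL2, IL4, IL7, IL15 and IL21, read 1.60, 1.58 and 1.50 in KMS-11 and -4.28, -4.49 and -4.50 in KMS-34, 63.1-fold higher in KMS-11 (adjusted p = 2.6e-11). CSF2RB, the common beta chain for IL3, IL5 and GM-CSF, read 3.84, 3.76 and 3.81 in KMS-11 and -1.83, -1.98 and -2.12 in KMS-34, 55-fold higher in KMS-11 (adjusted p = 2.9e-11). IL6R, the receptor for the chief growth factor of myeloma cells, went the other way, at -2.43, -2.54 and -2.60 in KMS-11 and 0.65, 0.92 and 0.65 in KMS-34 (3.27 ± 0.09, adjusted p = 1.6e-09), with 3 probe sets from 1.71 to 4.27. IL6ST, its signaling partner gp130, was higher in KMS-11 by a smaller margin (-0.35 ± 0.07, adjusted p = 0.0025).

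DKK1, a WNT antagonist that myeloma cells secrete and that blocks bone formation, read -0.39, -0.57 and -0.29 in KMS-11 and 3.70, 3.80 and 3.78 in KMS-34, 18.1-fold higher in KMS-34 (adjusted p = 2e-10). The BMP and activin receptors ACVR1 (1.31 ± 0.13) and BMPR2 (1.22 ± 0.07) were also higher there, and FGFR2 was higher in KMS-11 (-1.12 ± 0.07). The 11 probe sets of FGFR2 ran from -3.57 to 0.11, and 5 of them were called. IGF1 differed by 0.52 ± 0.06 (adjusted p = 7.8e-05) and its receptor IGF1R by -0.40 ± 0.07 (adjusted p = 0.0008), in opposite directions. HGF averaged -0.74 ± 0.07 (adjusted p = 1.8e-05) with probe sets from -2.33 to 0.79, and its receptor MET did not pass (0.08 ± 0.07, adjusted p = 0.44). Over the whole list of 53 genes, 14 were higher in KMS-34 and 15 higher in KMS-11 (54.7% called, against 41.4% of all genes), and the median was 0.00.

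Chemokine genes and their receptors were called for 9 of 27 (33.3%), against 41.4% of all genes. CXCL10 (-1.48 ± 0.12, adjusted p = 3.5e-06) and CCR10, a receptor of antibody-secreting cells (-1.45 ± 0.10, adjusted p = 1.3e-06), were higher in KMS-11. CCL2, a monocyte attractant, was higher in KMS-34, at 0.04, 0.01 and -0.38 in KMS-11 and 1.09, 1.00 and 0.87 in KMS-34 (1.09 ± 0.11, adjusted p = 2.3e-05). The bone marrow homing receptor CXCR4 differed by -0.21 ± 0.07 (adjusted p = 0.026). That call was lost without replicate 2 (-0.19) or 3 (-0.20) of KMS-11 and without replicate 1 (-0.20) or 3 (-0.20) of KMS-34, and cyclic loess turned the difference to 0.039.

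Adhesion molecules were called for 28 of 44 genes (63.6%, against 41.4% of all genes), 15 higher in KMS-34 and 13 higher in KMS-11. Without chromosomes 3, 4, 10, 11 and 12 the counts were 9 and 11 of 32. EPCAM, an epithelial molecule, read 6.12, 5.94 and 5.69 in KMS-11 and 0.06, -0.44 and -0.06 in KMS-34 (-6.06 ± 0.14, adjusted p = 5e-10). CDH2, or N-cadherin, which t(4;14) tumors often express, read -1.81, -1.87 and -1.91 in KMS-11 and 0.81, 1.06 and 0.84 in KMS-34 (2.77 ± 0.08, adjusted p = 2.5e-09). HMMR, a hyaluronan receptor, differed by 1.62 ± 0.07, CD58 by 1.35 ± 0.08, and LGALS3, galectin 3, by -1.84 ± 0.06. The 2 probe sets of LGALS3 differed by -3.61 and -0.08, and the gene was not called under cyclic loess scaling (-1.02). The hyaluronan receptor CD44 differed by 0.47 ± 0.07 (adjusted p = 0.00019) with 13 probe sets from -0.03 to 0.96, and the integrin ITGA4 by 0.58 ± 0.08 (adjusted p = 0.00016).

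Among 32 tumor suppressor and G1 genes, 12 were higher in KMS-34 and 9 higher in KMS-11 (65.6% called, against 41.4% of all genes). CCNE2, a cyclin of S phase entry, read 1.53, 1.61 and 1.45 in KMS-11 and -1.24, -0.88 and -1.21 in KMS-34 (-2.64 ± 0.10, adjusted p = 1.4e-08). CDK6, the partner of D cyclins, read -1.16, -1.04 and -1.16 in KMS-11 and 0.48, 0.58 and 0.41 in KMS-34 (1.61 ± 0.07, adjusted p = 4.8e-08), and the nuclear body protein SP140 differed by -0.93 ± 0.08. RB1 was higher in KMS-11 (-0.35 ± 0.09, adjusted p = 0.01) and CDKN2A higher in KMS-34 (0.37 ± 0.07, adjusted p = 0.00095), both by small amounts. KDM6A, a histone demethylase, differed by 0.28 ± 0.07 (adjusted p = 0.011) and was not called without replicate 1 of KMS-11 (0.25). CDKN2B (0.31 ± 0.15, adjusted p = 0.12) and the exosome nuclease DIS3 (-0.14 ± 0.07) did not pass, and CDKN2B was called without replicate 1 of KMS-34 (0.46) and DIS3 with its probe set of largest variance (-0.73).

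The BCL2 family, which sets the threshold for apoptosis, had 6 of 16 members higher in KMS-11 and 3 higher in KMS-34 (56.25% called, against 41.4% of all genes). The latter count was 5 with the probe set of largest variance standing for its gene. BIK, a proapoptotic BH3 protein, read 3.12, 3.10 and 3.08 in KMS-11 and -0.23, -0.56 and -0.09 in KMS-34 (-3.39 ± 0.11, adjusted p = 4.3e-09) and was not called under cyclic loess (-1.70). BCL2, the survival protein blocked by venetoclax, read 0.42, 0.50 and 0.45 in KMS-11 and -0.99, -0.81 and -0.71 in KMS-34 (-1.29 ± 0.08, adjusted p = 5.3e-07), and BID, which links death receptors to mitochondria, differed by -1.26 ± 0.07. The 4 probe sets of BCL2 ran from -3.63 to -0.16, and 2 of them were called. The proapoptotic members BMF (-0.91 ± 0.09) and BAX (-0.89 ± 0.09) were also higher in KMS-11, while HRK (0.90 ± 0.09) and PMAIP1, or NOXA (0.71 ± 0.08), were higher in KMS-34. MCL1, on which most myeloma cells depend, did not pass (-0.13 ± 0.08, adjusted p = 0.28), nor did BCL2L1 (-0.16 ± 0.07, adjusted p = 0.097) or BCL2L11 (0.02 ± 0.06, adjusted p = 0.85), whose 7 probe sets ran from -0.55 to 0.49.

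Efflux transporters differed in opposite directions. ABCG2, the breast cancer resistance protein, read -0.13, 0.08 and -0.07 in KMS-11 and -3.71, -3.72 and -3.61 in KMS-34 (-3.64 ± 0.08, adjusted p = 2.7e-10), and the lipid exporters ABCG1 (-2.79 ± 0.06) and ABCA1 (-1.84 ± 0.08) and the multidrug transporter ABCC1 (-1.71 ± 0.08, adjusted p = 5.1e-08) were higher in KMS-11 as well. The 4 probe sets of ABCA1 ran from -3.86 to -0.10, and 3 of them were called. ABCB1, P-glycoprotein, was higher in KMS-34, at -0.22, -0.22 and -0.09 in KMS-11 and 1.05, 1.02 and 0.90 in KMS-34 (1.17 ± 0.07, adjusted p = 5.2e-07), and the difference came from 1 of its 2 probe sets (2.17, the other 0.16). Of 13 transporters 7 were called (53.8%, against 41.4% of all genes), and under cyclic loess scaling 3 were, as ABCG2 (-1.64), ABCG1 (-1.30), ABCA1 (-1.002) and ABCC4 (0.19) no longer passed. ABCC4, at 0.20 ± 0.07 (adjusted p = 0.045) in the 6 arrays, was also lost under aligned medians, with array weights, and on leaving out any single array other than replicate 1 of KMS-34 (0.15 to 0.23).

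Proteasome genes differed by small amounts. Of 40 subunit and assembly genes, 16 were higher in KMS-11 and 7 higher in KMS-34 (57.5% called, against 41.4% of all genes), with a median of -0.15. The assembly chaperone PSMG3 was the 1 gene past 2-fold (-1.74 ± 0.07, adjusted p = 1.9e-08) and was not called under cyclic loess (-0.88). The subunits with the next largest differences were PSMC3 (0.94 ± 0.07), PSMD8 (0.74 ± 0.06) and PSME4 (-0.72 ± 0.08). PSMB5, the subunit that carfilzomib binds, did not pass, at -0.21, -0.23 and -0.39 in KMS-11 and -0.33, -0.21 and -0.18 in KMS-34 (0.04 ± 0.08, adjusted p = 0.75), and the arrays of the lines overlapped. ADRM1 (-0.17 ± 0.06, adjusted p = 0.064), PSMB1 (-0.16 ± 0.06, adjusted p = 0.075) and PSMA2 (-0.18) did not pass.

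The endoplasmic reticulum genes did not follow the ATF4 genes. The unfolded protein response has several branches, and of 23 chaperones and regulators 9 were higher in KMS-11 and 6 higher in KMS-34 (65.2% called, against 41.4% of all genes). HSPA5, the chaperone BiP, read 0.95, 0.97 and 0.94 in KMS-11 and -0.07, 0.05 and -0.01 in KMS-34 (-0.97 ± 0.06, adjusted p = 8.4e-07). ERO1B, an oxidase of disulfide formation, differed by -1.96 ± 0.07 (adjusted p = 1.2e-08), CRELD2 by -1.22 ± 0.06, and the sensor ATF6 by -0.81 ± 0.07. The sensor kinase ERN1, or IRE1, was higher in KMS-34 (1.11 ± 0.06, adjusted p = 3.1e-07), as was EDEM1 (0.73 ± 0.07). The endoplasmic reticulum stress element, written here as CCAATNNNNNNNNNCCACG and searched on both strands, was found for 8 of 22 members with a window (36.4%) and 0.0916% of all genes. The 4 members higher in KMS-11 (HSPA5, CALR, CRELD2 and ERO1B), HSP90B1 higher in KMS-34, and 3 that did not pass (PDIA6, CANX and XBP1) made up the 8.

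Heat shock genes were called for 11 of 21 (52.4%, against 41.4% of all genes), 8 of them higher in KMS-34 and 3 higher in KMS-11. With the probe set of largest variance standing for its gene, 6 were higher in KMS-11. The small chaperone HSPB1 read -1.33, -1.26 and -1.29 in KMS-11 and 0.00, 0.00 and 0.00 in KMS-34 (1.29 ± 0.06, adjusted p = 7.5e-08) and was the member past 2-fold. The cochaperone STIP1 differed by 0.81 ± 0.08 and HSPA4 by -0.55 ± 0.07. HSPA2 (0.22 ± 0.08, adjusted p = 0.064) and DNAJB1 (-0.15 ± 0.07) did not pass, and HSPA2 was called without replicate 1 of KMS-34 (0.30).

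Targets of NRF2, the factor of oxidative stress defense, were divided, with 11 of 29 higher in KMS-34 and 10 higher in KMS-11 (72.4% called, against 41.4% of all genes). Without chromosomes 3, 4, 10, 11 and 12 these counts were 5 and 9 of 21. ME1, the cytosolic malic enzyme, read 3.86, 3.73 and 3.77 in KMS-11 and 0.03, -0.23 and -0.25 in KMS-34 (-3.94 ± 0.09, adjusted p = 3.9e-10), and GSTP1, a glutathione transferase, 3.43, 3.40 and 3.48 in KMS-11 and 0.24, -0.10 and 0.01 in KMS-34 (-3.39 ± 0.09, adjusted p = 1.3e-09). AKR1C3, an aldo-keto reductase, read -0.40, -0.12 and -0.10 in KMS-11 and 2.77, 2.42 and 2.46 in KMS-34 (2.75 ± 0.11, adjusted p = 2.4e-08). NQO1, the quinone reductase, was higher in KMS-11 (-0.91 ± 0.07, adjusted p = 1.9e-06) and HMOX1, heme oxygenase, higher in KMS-34 (0.51 ± 0.08, adjusted p = 0.00058), so the best-known targets did not share a direction. ME1 and GSTP1 were not called under cyclic loess scaling (-1.66 and -1.20). The 3 probe sets of ME1 ran from -5.85 to -0.19, and 2 of them were called.

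Autophagy genes were called for 18 of 22 (81.8%, against 41.4% of all genes), 11 higher in KMS-11 and 7 higher in KMS-34, with 1 past 2-fold, the ATG8 protein GABARAPL1 (1.49 ± 0.08, adjusted p = 1.5e-07). SQSTM1, or p62, the receptor that carries ubiquitinated cargo to autophagosomes, was higher in KMS-11, at -0.02, -0.10 and -0.06 in KMS-11 and -1.05, -1.01 and -0.93 in KMS-34 (-0.93 ± 0.07, adjusted p = 1.3e-06), with 5 probe sets from -2.27 to -0.12. The lysosomal membrane protein LAMP2 differed by -0.80 ± 0.07 and the phosphoinositide-binding WIPI1 by 0.94 ± 0.07.

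Proliferation genes were called for 17 of 25 (68%, against 41.4% of all genes), 12 higher in KMS-34 and 5 higher in KMS-11. The replicative helicase subunits MCM6 (1.24 ± 0.08) and MCM4 (1.02 ± 0.07) were higher in KMS-34, and TOP2A (-0.94 ± 0.08), CCNA2 (-0.84 ± 0.07) and AURKA (-0.73 ± 0.07) higher in KMS-11. MKI67 did not pass (0.11 ± 0.07, adjusted p = 0.26) but was called with its probe set of largest variance (0.58). Cancer-testis antigens were called for 5 of 20 (25%, against 41.4% of all genes), and 10% of them by at least 2-fold, against 7.72% of all genes. CTAG2, at 7.02, 6.96 and 6.97 in KMS-11 and -0.09, -0.25 and -0.19 in KMS-34 (adjusted p = 2.6e-12), and TEX14, at 0.36, 0.44 and 0.34 in KMS-11 and 4.45, 4.64 and 4.46 in KMS-34 (adjusted p = 1e-10), stood far apart between the lines. The other called antigens differed by small amounts, MAGEA6 by -0.45 ± 0.12, MAGEC1 by -0.50 ± 0.09 and PRAME by 0.35 ± 0.09.

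Among markers of other cell types, epithelial ones apart, 0% to 33.3% of each group were called, against 41.4% of all genes. The epithelial markers were called in a larger share, 66.7%. None of 9 monocyte and granulocyte markers was called by limma, with the lowest adjusted p 0.067 for CD14 and 1 unadjusted p under 0.05, and 1 of 10 stromal and endothelial markers was (PECAM1, 0.67 ± 0.07). Of 10 T and NK cell markers 3 were called, TRAT1 higher in KMS-34 (1.30 ± 0.20, adjusted p = 0.00037) and CD8A (-0.54) and CD3E (-0.24) higher in KMS-11. HBD (2.13 ± 0.08) and HBB were the called ones of 6 erythroid markers. Of 6 epithelial markers, 4 were higher in KMS-11, EPCAM and KRT18 (-1.94 ± 0.06) by more than 2-fold. Of 10 plasma cell markers, 6 were higher in KMS-34 and 2 higher in KMS-11, and of 7 mature B cell markers 1 was higher in each. These markers, named because their counts were small, were measured as differences only.

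The called genes were unevenly spread over the chromosomes. On chromosome 12, 39.6% of 1036 genes were higher in KMS-34 and 9.94% higher in KMS-11, and chromosomes 10, 11 and 3 leaned the same way, with 35.6%, 34.6% and 31.4% higher in KMS-34. On chromosome 4 the order was reversed, with 39.2% of 793 genes higher in KMS-11 and 7.82% higher in KMS-34. The medians of whole chromosomes stayed within 0.13 of zero, from -0.09 on chromosome 4 to 0.13 on chromosome 12. Copy number was not measured, and its part in these shares was not tested.

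Runs of 15 neighboring measured genes, in RefSeq order, gave a finer view. The most extreme runs were not confined to chromosomes 3, 4, 10, 11 and 12. Over 1303 such runs the median difference lay between -0.24 and 0.28 for 90% of them. The highest run medians were 0.86 on chromosome 5 from FAM200C to WWC1, 0.82 on chromosome 8 from CPSF1 to ARHGAP39, 0.81 on chromosome 11 from OTUB1 to GPR137, and 0.67 and 0.64 on chromosome 12 from ZCCHC8 to MTRFR and from HSP90B1 to APPL2. The 5 runs were picked by their medians, so most of their genes had to lean that way. In each at least 10 of 15 genes were higher in KMS-34. The lowest run medians were -0.81 and -0.80 on chromosome 4, from BBS12 to LARP1B and from EXOC1 to IGFBP7, -0.68 on chromosome 14 from JAG2 to IGHA1, -0.63 on chromosome 7 from RAC1 to UMAD1 and -0.63 on the X chromosome from SLC10A3 to CLIC2. These, picked in the same way, hold 9 to 12 genes higher in KMS-11 each. The chromosome 14 run ends in the immunoglobulin heavy chain locus, the partner of the t(4;14) translocation.

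**Figure D5:**
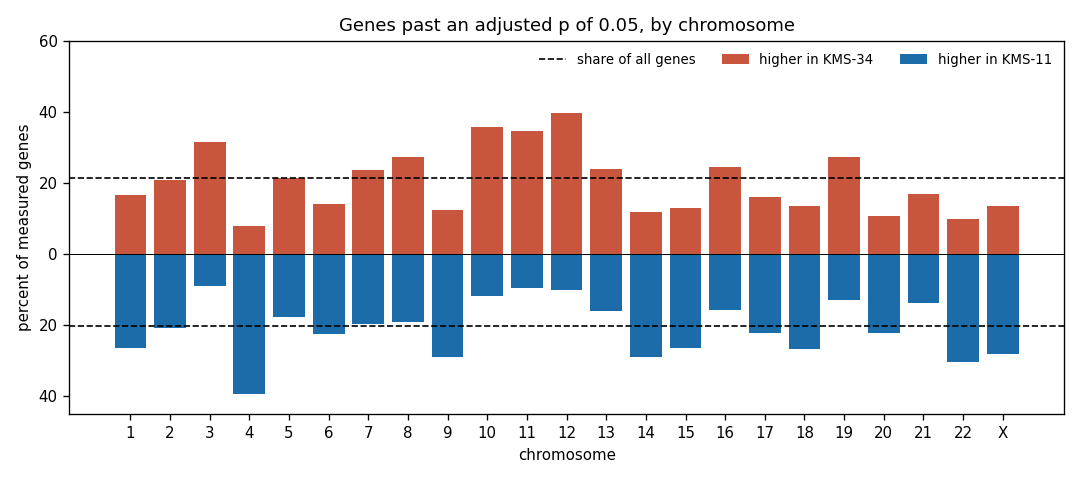
Percent of the measured genes of each chromosome (x axis) called higher in KMS-34 (red, upward) or higher in KMS-11 (blue, downward), with dashed lines at the shares of all genes, 21.4% and 20.1%. Chromosomes 3, 10, 11 and 12 rise above the upper line, and chromosome 4 reaches farthest below the lower line.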

How the data were processed

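Total RNA of 12 samples was profiled on Affymetrix U133 Plus 2.0 arrays. RMA, in a version that is not stated, was the authors' normalization, and the deposited table holds log2 values for 54613 probe sets, from -7.75 to 8.64, each probe set centred on 1 value shared by all arrays. The 2 values nearest zero mirrored each other in 26784 probe sets (49.0%), 10172 of them over arrays of different lines, so the centre was shared by the lines, but which arrays set it is not settled. The genome build is not given in the sources used here. No dim probe sets were filtered, since centred values hold no level, and array number limits the precision.

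The 3 KMS-34 and 3 KMS-11 arrays entered a linear model with a mean per line in limma 3.58.1 under R 4.3.3 (lmFit, eBayes), tested first on simulated data. The 41091 probe sets that name 1 gene in the platform annotation were averaged into 19775 genes (10523 with more than 1), with symbols updated through RefSeq (GRCh38.p14), and 1801 probe sets naming several genes and 11721 naming none entered the probe set test alone. P-values are two-sided and Benjamini-Hochberg adjusted. In 243 genes probe sets were called in both directions. Genes of the Y chromosome and XIST are not shown. Python 3.11.15, pandas 2.3.3 and matplotlib 3.10.9 served for tables and figures.

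The comparison, the 24 lists (597 measured genes) and the alternatives were chosen with earlier results of these data known. Genes were named by rule. In each direction these were the 15 largest called differences without overlap and with every probe set of the gene of the same sign. Added were up to 8 called and 4 uncalled members of each list and 61 genes fixed by name (53 of them analysed here). Both ends of 5 runs of neighboring genes in each direction were named too. Exceptions were list members and markers that complete a pathway or a count, which were chosen after their values were seen. Alternatives were all 12 arrays in 1 fit, the replicate number as a block, aligned medians, cyclic loess, array weights, the probe set of largest variance, a threshold of 0.01, wider runs and leaving out each array. The counts without 5 chromosomes were added after seeing the data.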

Additional observations from a re-analysis of the deposited data

How the results depend on the processing

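Leaving out each array in turn gave 3674 to 4216 genes higher in KMS-34 (4225 with all arrays), 3443 to 3938 higher in KMS-11 (3971), 646 to 748 and 802 to 848 by at least 2-fold, and 16052 to 17887 probe sets. With the probe set of largest variance standing for its gene, 1166 genes were higher in KMS-34 and 1319 higher in KMS-11 by at least 2-fold, against 709 and 818 for the mean of all probe sets, which pulls a gene toward its least responsive probe set. Cyclic loess gave 507 genes at least 2-fold higher in KMS-11 and 787 higher in KMS-34, so that 60.8% of these calls favored KMS-34 against 46.4%, and it left 3 of 7 called drug transporters. Cyclic loess levels differences along the mean signal of a gene, and in centred data the extremes of that mean are held by genes that differ: of the 198 genes with the highest mean over the 6 arrays 99.5% were called at 2-fold, with a median of -2.21. Among 340 named genes, 236 of them called, loess lost 30 calls and brought 6, the probe set of largest variance lost 1 and brought 21, and the other scaling, aligned medians, lost 1. CXCR4 reversed under loess (0.039) and SAMD9L, not called with the mean, was called higher in KMS-11 with the probe set of largest variance (-0.34). The number of called genes in each of the other lists, both directions together, stayed within 1.5 times under every alternative. By direction, genes higher in KMS-11 went from 3 to 6 for heat shock (largest variance), from 4 to 1 for transporters (loess), from 5 to 3 for HLA class I and chemokines and from 2 to 1 for the MAF genes (adjusted p under 0.01), and BCL2 genes higher in KMS-34 from 3 to 5 (largest variance). Leaving out 1 array moved such a count by more than 1.5 times for HLA class I (5 to 3) and the MAF genes (2 to 1).

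Replicate numbers are shared by the lines. Same-numbered arrays deviated from their line means with r of -0.11, 0.25 and 0.07, and differently numbered ones with r of -0.39 to 0.33. Deviations within a line of 3 arrays cancel out, so these r depend on each other. They cannot settle whether the numbers mark a pairing. A fit with the replicate block called 4210 genes higher in KMS-34 and 3986 higher in KMS-11, lost none of the 236 calls and brought 5. In 25-gene runs the highest and lowest medians were 0.63 and -0.61. The smallest absolute difference called was 0.17.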
